A study of Mus musculus with 12 samples.

Results

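The genes described here were 8 transcription factors that mark dermal fibroblasts or drive mesenchymal programs: En1, Prrx1, Twist1, Twist2, Snai1, Snai2, Zeb1 and Zeb2. They were taken by symbol from the gene counts of 12 mouse scar libraries, which listed 35976 genes. All 8 passed the filter on low counts, as did 18853 genes in all.

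The study stretched healing skin wounds in male mice with and without the membrane glycoprotein TEM1 (endosialin, gene Cd248) and sequenced RNA from each scar. Tem1WT/WT mice carried the intact gene. Tem1lacZ/lacZ mice lacked the coding exon in all tissues and carried lacZ at that position, and the line had been backcrossed for 10 generations to C57BL/6J. All mice were 8 to 12 weeks old, each had a 1.5 cm split wound on the back, and each received an expandable plastic device 6 days later, so the sham groups also carried a device. In the traction groups the device was lengthened by 1 mm per day to 8 mm in total, and in the sham groups it was left as placed. The 4 groups of 3 mice were Tem1WT/WT sham (WTSH), Tem1WT/WT traction (WTTR), Tem1lacZ/lacZ sham (lacZSH) and Tem1lacZ/lacZ traction (lacZTR). The deletion is global, so the model does not separate loss of TEM1 in fibroblasts from loss in pericytes or other cells. The libraries held between 41536788 and 64644293 gene counts. Cd248 lay between 92.4 and 337 CPM (counts relative to library size) in the Tem1WT/WT libraries and between 0 and 0.248 CPM in the Tem1lacZ/lacZ libraries, as the labels require. All 10 markers of a fibroblast list were detected in every library, with a summed level of 5320 to 10500 CPM.

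Snail (Snai1) and Slug (Snai2), ZEB1 and ZEB2, and TWIST1 and TWIST2 are the core factors of the epithelial-mesenchymal transition, in which cells lose cell-cell junctions and gain a migratory, matrix-producing state. The Snail and ZEB proteins are zinc-finger repressors that bind E-boxes in promoters of epithelial genes, and the TWIST proteins are basic helix-loop-helix factors that pair with E proteins. In skin these factors are also expressed by resident fibroblasts, and the homeobox factors En1 and Prrx1 mark the lineages that lay down dorsal and ventral dermal scars, respectively.

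Promoter sequences are shown for Snai1 and En1, the pair of factors past the test threshold, and for Twist1, whose Tem1WT/WT groups overlapped, so that their regulatory letters can be read beside the values. RefSeq promoters of mouse build GRCm38.p6 were used for 6 of the 8 genes. Snai2 was not matched, and the Zeb1 promoter is not reported here. The windows below lie on the plus strand and end before the gene as GENCODE vM21 annotates it, so that of En1 was shortened from 250 to 181 bases. The En1 window covers chr1:120602237-120602417, the Snai1 window chr2:167537945-167538194 and the Twist1 window chr12:33957421-33957670. Capitals mark the letters of any motif searched on both strands: the E-box CANNTG and its Snail and ZEB form CACCTG, the AP-1 site TGANTCA, the TEAD site CATTCC, the SMAD palindrome GTCTAGAC and the CCAAT box.
En1: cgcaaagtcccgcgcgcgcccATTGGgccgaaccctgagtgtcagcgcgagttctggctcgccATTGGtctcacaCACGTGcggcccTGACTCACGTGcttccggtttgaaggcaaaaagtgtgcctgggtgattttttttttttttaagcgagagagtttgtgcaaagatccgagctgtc
Snai1: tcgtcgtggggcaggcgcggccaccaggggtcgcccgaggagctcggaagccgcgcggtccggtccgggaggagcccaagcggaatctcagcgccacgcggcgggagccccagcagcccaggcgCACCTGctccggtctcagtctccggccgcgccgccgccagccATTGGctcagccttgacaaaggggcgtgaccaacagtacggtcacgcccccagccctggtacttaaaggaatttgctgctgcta
Twist1: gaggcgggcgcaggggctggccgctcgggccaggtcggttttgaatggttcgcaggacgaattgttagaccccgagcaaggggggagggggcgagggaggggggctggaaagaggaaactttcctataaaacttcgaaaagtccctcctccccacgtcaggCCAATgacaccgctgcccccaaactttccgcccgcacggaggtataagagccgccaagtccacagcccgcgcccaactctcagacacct
The En1 window held 2 E-boxes, both reading CACGTG, with the second sharing letters with an AP-1 match, and 2 CCAAT boxes on the minus strand. The Snai1 window held 1 E-box, the CACCTG form that Snail and ZEB proteins bind, and 1 CCAAT box. The Twist1 window held 1 CCAAT box and no match to the other motifs. Among 32851 promoter windows of 250 bases, 66.2% held CANNTG, 17.2% held CACCTG, 6.75% held TGANTCA, 12.6% held CATTCC, 0.167% held GTCTAGAC and 33.8% held CCAAT. These matches describe letters and were not tested for binding.

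Snai1 (chromosome 2, 167538195 to 167542814, plus strand, 3 exons, GRCm38) encodes the zinc-finger repressor of E-cadherin and was the factor with the smallest p for traction in Tem1WT/WT scars. Its level, normalized with the trimmed mean of M-values (TMM), was 4.36, 6.05 and 6.58 CPM in the WTSH libraries and 47.2, 31.0 and 32.2 CPM in the WTTR libraries. In lacZSH it was 4.26, 3.70 and 5.11 CPM, and in lacZTR 9.44, 17.3 and 10.1 CPM. The traction libraries lay above the sham libraries of the same genotype without overlap, and all 3 lacZTR libraries lay below all 3 WTTR libraries. In edgeR's quasi-likelihood test with Benjamini-Hochberg adjustment over all genes tested, Snai1 rose with traction in Tem1WT/WT scars by 2.70 on the log2 scale (SE 0.288, 6.48-fold, adjusted p = 0.0154) and ranked 1 by p among the 18853 genes. The call was lost without WTSH replicate 1 (adjusted p = 0.109 in edgeR) or WTSH replicate 2 (0.0849), settings in which edgeR called 0 of all genes and log2 changes of 2.54 and 2.76 stood, with 4229 and 4847 genes at an unadjusted p under 0.05. A fit of the WTSH and WTTR libraries alone also lost the call (log2 change 2.69, edgeR adjusted p = 0.0747). That fit called 0 of 17762 genes, with 4876 at an unadjusted p under 0.05. In a bulk sample, fewer cells of a type and less RNA per cell cannot be told apart, here and for each factor below.

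En1 (chromosome 1, 120602418 to 120607992, plus strand, 2 exons) encodes the engrailed homeobox factor, whose lineage history marks the scar-forming fibroblasts of dorsal skin. It was 6.43, 7.94 and 8.75 CPM in WTSH and 28.8, 24.2 and 30.4 CPM in WTTR. In lacZSH it was 4.19, 2.92 and 5.07 CPM, and in lacZTR 3.70, 15 and 13.6 CPM. The WTTR libraries were the 3 highest of all 12, whereas lacZTR replicate 1 lay within the lacZSH range. En1 rose with traction in Tem1WT/WT scars by 1.85 on the log2 scale (SE 0.420, 3.6-fold, edgeR adjusted p = 0.0329). The En1 call was lost without any single WTSH library (adjusted p = 0.13, 0.0947 and 0.0565 without replicates 1, 2 and 3 in edgeR), without WTTR replicate 1 or 3 (0.0577 and 0.0665) and without lacZSH replicate 3 (0.0527), with log2 changes between 1.73 and 1.95 when any 1 library was left out. It was also lost in the fit of the WTSH and WTTR libraries alone (edgeR adjusted p = 0.0747) and with libraries scaled to fibroblast markers (0.0707). Where the call was lost, edgeR called 0 to 820 genes in all, against 1725 with all libraries.

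Snai1 and En1 were thus 2 of 8 factors called higher in Tem1WT/WT scars under traction, where 5.61% of all genes tested were called higher and 9.15% in either direction. All 8 estimates were above 0, as were 49.4% of all genes. The median log2 fold change was 0.80 over the 8 factors and -0.01 over all genes tested. The sham and traction libraries did not overlap for 5 of the 8 (En1, Prrx1, Twist2, Snai1 and Snai2), all higher with traction, against 17.7% of all genes.

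**Figure D1:**
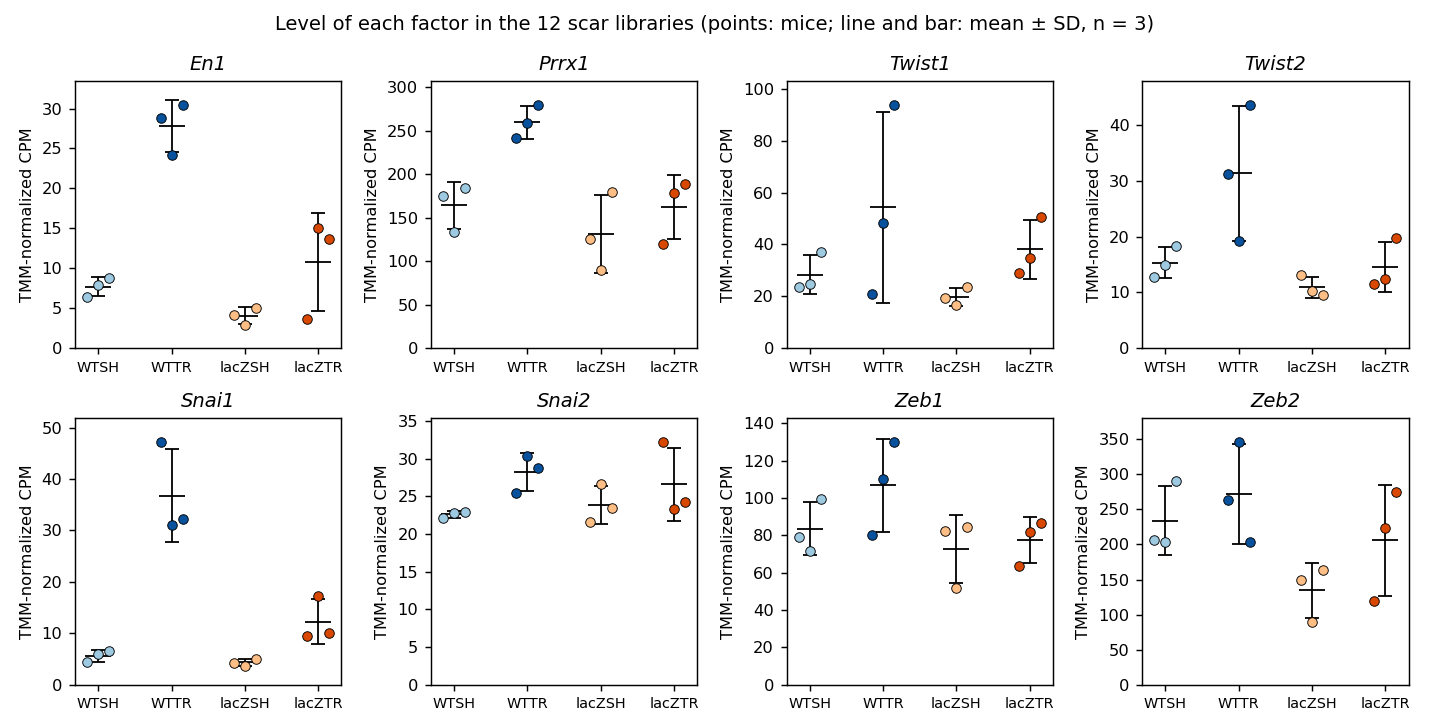
Level of each factor in TMM-normalized CPM (y axis, from 0) in the 4 groups (x axis). Points are single mice and the lines and bars are the mean and SD of 3 mice. Snai1 and En1 were at 31.0 CPM or more and 24.2 CPM or more in every WTTR library and below 9 CPM in every sham library, whereas Snai2 stayed between 21.6 and 32.2 CPM in all 12.

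Prrx1 (chromosome 1, 163245119 to 163313710, minus strand) encodes the paired-related homeobox factor of limb and ventral-skin mesenchyme. It was 175, 133 and 184 CPM in WTSH, 241, 259 and 279 CPM in WTTR, 125, 90.1 and 179 CPM in lacZSH and 120, 178 and 189 CPM in lacZTR. The Tem1WT/WT groups did not overlap and the Tem1lacZ/lacZ groups did. The difference between traction and sham in Tem1WT/WT scars was 0.66 on the log2 scale (SE 0.252) and did not pass the test (edgeR adjusted p = 0.102).

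Twist2 (chromosome 1, 91801461 to 91848028, plus strand), which encodes 1 of the TWIST pair, was 12.8, 14.9 and 18.3 CPM in WTSH and 31.3, 19.3 and 43.6 CPM in WTTR. It was 13.1, 10.3 and 9.47 CPM in lacZSH and 11.6, 12.5 and 19.8 CPM in lacZTR. The highest levels were WTTR replicates 3 and 1, and the lowest WTTR library stood just above the highest WTSH library. Its Tem1WT/WT traction difference of 1.03 (log2, SE 0.301) lay just outside the threshold (edgeR adjusted p = 0.0535). Without WTTR replicate 2 it was 1.30 and passed (edgeR adjusted p = 0.0169). That fit called 2861 of 19400 genes, against 1725 of 18853 with all libraries. DESeq2 with all libraries also called Twist2 (adjusted p = 0.0131), where 11.8% of all genes were called higher.

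Twist1 (chromosome 12, 33957671 to 33959829, plus strand, 2 exons), its paralog, was 23.4, 24.6 and 37.2 CPM in WTSH, 21.0, 48.1 and 93.7 CPM in WTTR, 19.3, 16.6 and 23.6 CPM in lacZSH and 28.8, 34.7 and 50.7 CPM in lacZTR. The WTTR libraries were the most scattered of the 4 groups: one lay below all WTSH libraries and another was the highest of all 12. The Tem1lacZ/lacZ groups did not overlap. The log2 differences were nearly equal in both genotypes, 0.94 (SE 0.438, edgeR adjusted p = 0.170) in Tem1WT/WT and 0.94 (SE 0.439, adjusted p = 0.622) in Tem1lacZ/lacZ, and neither passed the test. Without WTTR replicate 3 the Tem1WT/WT value was 0.29.

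Snai2 (chromosome 16, 14705852 to 14709385, plus strand, 3 exons), the Slug repressor of basal keratinocytes and mesenchyme, varied least. It was 22.1, 22.8 and 22.9 CPM in WTSH, 25.5, 30.4 and 28.7 CPM in WTTR, 21.6, 26.6 and 23.5 CPM in lacZSH and 32.2, 23.3 and 24.2 CPM in lacZTR. The Tem1WT/WT groups did not overlap, but the log2 difference of 0.32 (SE 0.151, 95% confidence interval -0.01 to 0.65) did not pass the test (edgeR adjusted p = 0.175).

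Zeb1 was 79.2, 71.9 and 99.3 CPM in WTSH, 80.4, 110 and 130 CPM in WTTR, 82.3, 51.8 and 84.3 CPM in lacZSH and 63.5, 81.9 and 86.8 CPM in lacZTR. Zeb2 (chromosome 2, 44983632 to 45117395, minus strand), which macrophages also express, was 207, 204 and 291 CPM in WTSH, 264, 346 and 204 CPM in WTTR, 150, 90.2 and 164 CPM in lacZSH and 119, 223 and 275 CPM in lacZTR. Sham and traction overlapped for both genes in both genotypes. The Tem1WT/WT log2 differences were 0.35 for Zeb1 (95% confidence interval -0.16 to 0.87) and 0.22 for Zeb2 (-0.51 to 0.94), with edgeR adjusted p = 0.325 and 0.690. The antisense gene Zeb2os lies over Zeb2 and had 31 to 99 counts per library. The strand setting of the counting was not given in the sources used here, so reads of Prrx1, Twist2, Zeb1 and Zeb2 cannot be separated from those of genes on the other strand that overlap them.

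Per kilobase of merged exons (GENCODE vM21), the level in WTSH was highest for Twist1 (17.4 CPM per kb ± 4.71, SD, n = 3), then Prrx1 (14.8 ± 2.42), Zeb2 (11.7 ± 2.48) and Snai2 (11.2 ± 0.224). Zeb1 (8.13 ± 1.38), Twist2 (4.83 ± 0.879), Snai1 (3.50 ± 0.715) and En1 (2.94 ± 0.449) followed. Neighbours in this order overlapped between libraries, except that Zeb1 stood apart from Snai2 above and from Twist2 below. In WTTR, Snai1 reached 22.7 CPM per kb ± 5.59 (SD, n = 3) and moved from rank 7 to rank 3, next to Prrx1 at 23.4 ± 1.69, while in lacZTR it was at 7.57 ± 2.68 and rank 5. When the longest coding transcript gave the length, Zeb2 (25.6 CPM per kb) and Prrx1 (25.1) led in WTSH. By that length Snai1 was at rank 7 in WTSH, rank 4 in WTTR, where Prrx1 was at 39.8, and rank 6 in lacZTR. The order thus depends on the transcript counted.

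In Tem1lacZ/lacZ scars no factor passed the test for traction, and 0% of all genes tested were called by edgeR in either direction (1530 genes had an unadjusted p under 0.05, DESeq2 called 28 and limma-voom 435). DESeq2 called 1 factor, Snai1 (0.117% of all genes called higher), and limma-voom 2, Snai1 and En1 (1.84%). Snai1 ranked 2 by p among all genes, at a log2 difference of 1.49 (SE 0.278, edgeR unadjusted p = 0.00022, adjusted p = 0.598). En1 followed at 1.40 (SE 0.418, unadjusted p = 0.00638, edgeR adjusted p = 0.598). The other differences were 0.61 for Zeb2, 0.42 for Twist2, 0.31 for Prrx1, 0.15 for Snai2 and 0.09 for Zeb1, with a median of 0.51 over the 8 factors against -0.01 over all genes. All 8 estimates were above 0 (48.5% of all genes), and Twist1 and Snai1 did not overlap between lacZSH and lacZTR, 2 of 8 against 6.77% of all genes. Without lacZTR replicate 1, both Snai1 (1.69, edgeR adjusted p = 0.0495) and En1 (1.86, adjusted p = 0.0426) were called, among 73 genes in all. That library had the highest summed keratinocyte markers of its group, 41200 CPM, against a group minimum of 14500, and the lowest summed fibroblast markers, 5610 CPM, and their part in the result was not tested.

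Over both genotypes, with the mean of both traction effects, Snai1 (2.09, SE 0.2, edgeR adjusted p = 0.00776) and En1 (1.63, SE 0.296, adjusted p = 0.0216) were again higher with traction, 2 of 8 against 6.5% of all genes. Twist2 (0.72, edgeR adjusted p = 0.0537), Twist1 (0.94, 0.0746) and Prrx1 (0.48, 0.0968) did not pass. DESeq2 called these 3 as well (12.5% of all genes called higher). Without lacZSH replicate 2, edgeR called 0 factors and 0 genes in all, with 4822 genes at an unadjusted p under 0.05 (Snai1 and En1 included). The En1 call was also lost without WTSH replicate 1 or 2 (edgeR adjusted p = 0.0623 and 0.0536) and without lacZTR replicate 2 or 3 (0.0603 and 0.0525). Those removals left 15 to 185 genes called in all, against 1835 with all libraries.

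Without traction, the genotypes differed for no factor after adjustment, and edgeR called 0.0106% of all genes (2 genes in all, 2198 at an unadjusted p under 0.05, with 43 called by DESeq2 and 1 by limma-voom). The estimates lay below 0 for 7 of the 8, with Snai2 the exception, and the median was -0.43. En1 (-0.92, SE 0.415) and Zeb2 (-0.79, SE 0.330) did not overlap between WTSH and lacZSH and had unadjusted p = 0.0477 and 0.0347 in edgeR (adjusted p = 0.427 and 0.415). For comparison, 13.8% of all genes were lower in lacZSH without overlap.

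With traction, the comparison of genotypes shares the WTTR libraries with the Tem1WT/WT traction comparison, so the values are not independent of those above. No factor passed the test in edgeR, which called 0.106% of all genes, 20 in all (4930 genes had an unadjusted p under 0.05, and limma-voom called 16). Snai1 was lower in lacZTR by an estimated -1.58 (SE 0.276, edgeR adjusted p = 0.0666), En1 by -1.37 (SE 0.414, adjusted p = 0.0990), Twist2 by -1.10 (SE 0.302, 0.0951) and Prrx1 by -0.68 (SE 0.252, 0.135). The WTTR and lacZTR libraries did not overlap for En1, Prrx1 and Snai1, 3 of 8, against 13.7% of all genes lower without overlap. All 8 estimates lay below 0 with TMM (median -0.59), but Snai2 turned to 0.05 under upper quartile scaling, where the median of all genes was 0.144, and Twist1 and Snai2 turned to 0.04 and 0.37 with libraries scaled to fibroblast markers, where that median was 0.438. Relative to those medians, Snai2 was at -0.10 and -0.06 and Twist1 at -0.54 and -0.40. DESeq2 called Snai1, Twist2 and En1 lower (adjusted p = 3.39e-05, 0.0156 and 0.0190), where 7.77% of all genes were called lower. Without WTTR replicate 2, edgeR called Snai1 (-1.70, adjusted p = 0.0175) and Twist2 (-1.36, adjusted p = 0.0244). That fit called 1421 of 19400 genes in all, against 20 with all libraries.

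The test of whether the traction effect itself differed between genotypes passed for no factor, and 0% of all genes were called by edgeR (1680 had an unadjusted p under 0.05, and DESeq2 called 69). Snai1 had the smallest p of the 8, with a traction effect smaller in Tem1lacZ/lacZ by an estimated -1.20 on the log2 scale (SE 0.386, 95% confidence interval -2.05 to -0.36, edgeR unadjusted p = 0.00965, adjusted p = 0.548). The interaction estimate was -0.44 for En1 (95% confidence interval -1.72 to 0.83) and 0.01 for Twist1 (-1.34 to 1.36). The En1 and Twist1 intervals leave room for differences in both directions. The Snai1 interval, which is not adjusted for the number of genes tested, lies below 0.

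**Figure D2:**
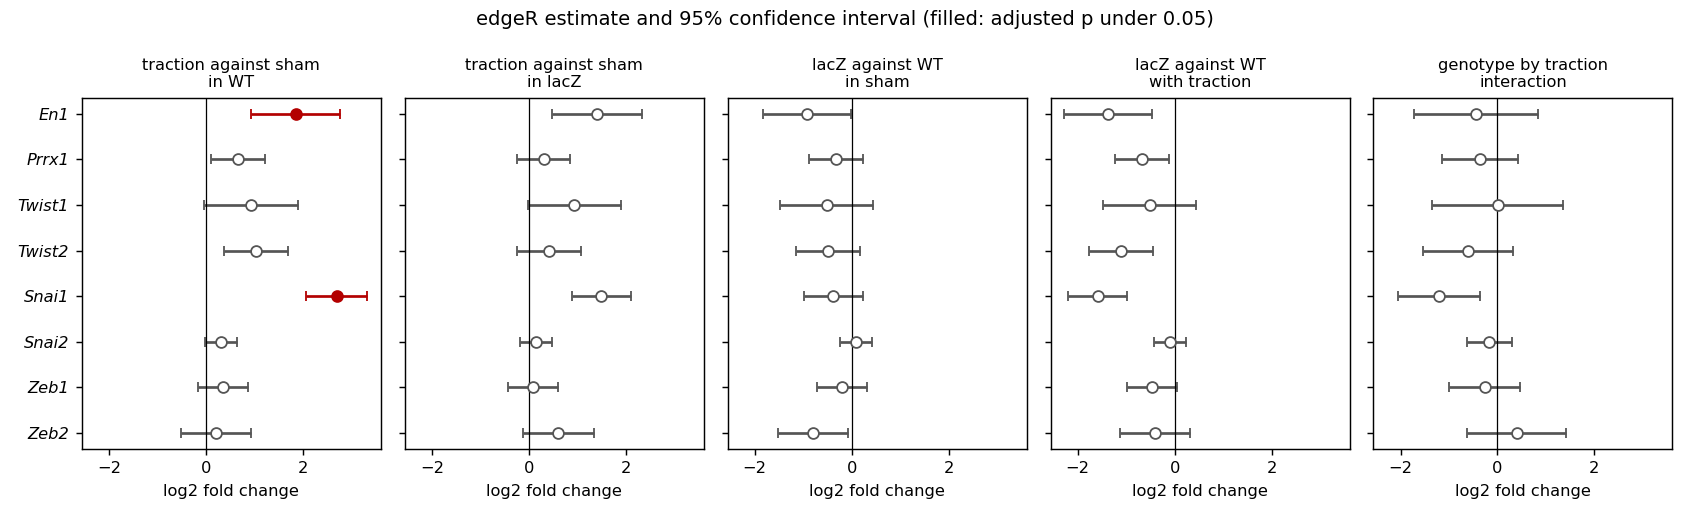
Log2 fold change (x axis) of each factor (y axis) in 5 contrasts of the edgeR fit, with bars for the 95% confidence interval and filled points for adjusted p under 0.05. Snai1 at 2.70 and En1 at 1.85 in Tem1WT/WT scars under traction are the filled points, and the Snai2 points lie within 0.32 of 0 in every panel.

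The balance within each pair of paralogs was compared as a log2 ratio of CPM inside each library, which does not depend on library size. For Snai1 over Snai2 it was -2.33 to -1.79 in WTSH, 0.03 to 0.89 in WTTR, -2.83 to -2.19 in lacZSH and -1.76 to -0.43 in lacZTR. Thus the ratio was higher in every traction library than in every sham library of either genotype. It was higher by 1.84 with traction, permuting labels within genotype (exact permutation test, two-sided, p = 0.005, the smallest of 400 arrangements), and lower by -0.98 in Tem1lacZ/lacZ (exact permutation test, p = 0.01). For Twist1 over Twist2 the difference with traction was 0.14 (exact permutation p = 0.78) and between genotypes 0.37 (p = 0.35). For Zeb1 over Zeb2 these were -0.16 (exact permutation p = 0.46) and 0.30 (p = 0.225). The Zeb1 over Zeb2 ratio was -1.55 to -1.38 in WTSH and -0.96 to -0.80 in lacZSH, 2 groups that did not overlap. With traction it was -1.71 to -0.65 in WTTR and -1.66 to -0.90 in lacZTR, which overlapped with means of -1.34 each. The p-values of these 6 tests are unadjusted.

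**Figure D3:**
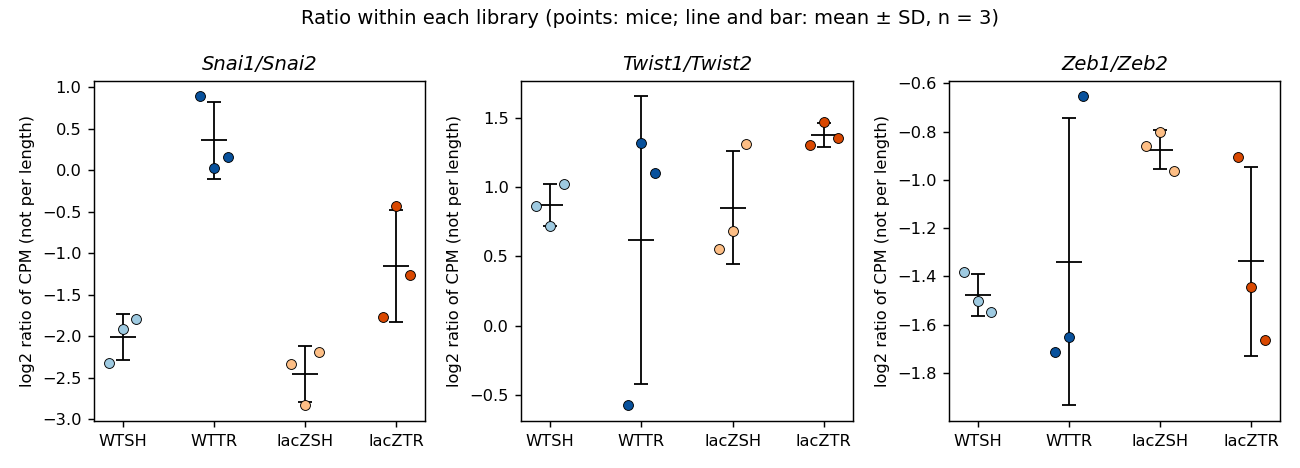
Log2 ratio of CPM within each paralog pair (y axis) in the 4 groups (x axis). Points are mice and the lines and bars are the mean and SD of 3 mice. The Snai1 over Snai2 ratio has a mean of 0.36 in WTTR and -2.01 in WTSH, and the Twist1 over Twist2 ratio in WTTR is spread from -0.58 to 1.32.

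The factors were next set against the mean log2 level of the 10 fibroblast markers in the same library. That mean was 8.52 ± 0.288 in WTSH, 8.76 ± 0.430 in WTTR, 8.57 ± 0.395 in lacZSH and 8.33 ± 0.304 in lacZTR (SD, n = 3). Of the 10 markers, 3 (Pdgfra, Fbln1 and Fbln2) rose with traction in Tem1WT/WT scars and 0 fell, against 5.61% of all genes called higher. There 6 of the 10 estimates lay above 0 and 4 below. Over both genotypes 3 markers were called higher and 1 lower, against 6.5% and 3.23% of all genes, with 5 estimates above 0 and 5 below. Relative to the marker mean and over both genotypes, Snai1 was higher with traction by 2.07 and En1 by 1.52 (exact permutation, two-sided, p = 0.005 each). The same difference was 0.51 for Prrx1 (exact permutation p = 0.01), 0.68 for Twist2 (p = 0.015), 0.23 for Zeb1 (p = 0.015) and 0.82 for Twist1 (p = 0.02). It was 0.39 for Zeb2 (exact permutation p = 0.17) and 0.23 for Snai2 (p = 0.395). Relative to the same markers, Tem1lacZ/lacZ scars were lower for En1 by -1.08 (exact permutation p = 0.005), Snai1 by -0.80 (p = 0.015), Twist2 by -0.58 (p = 0.03) and Prrx1 by -0.34 (p = 0.04), whereas the other 4 factors had p of 0.065 or more. The Prrx1 genotype difference had p under 0.05 only without WTSH, WTTR or lacZSH replicate 3 or lacZTR replicate 2, among the 12 removals of 1 library, and rose to 0.085 (exact permutation) without WTSH or WTTR replicate 1. For Twist2 it reached 0.05, 0.05 and 0.055 (exact permutation) without lacZSH replicate 3, lacZTR replicate 1 and lacZTR replicate 2. The p-values of these 16 tests are unadjusted. In edgeR with libraries scaled to the same markers, Snai1 was called in Tem1WT/WT scars (2.55, adjusted p = 0.0354) and En1 was not (1.64, adjusted p = 0.0707). That setting called 26 of 18853 genes in all, against 1725 with TMM alone, and the median of all genes shifted to -0.23.

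Epithelial genes, mesenchymal genes and partners of the factors were described with lists of genes. Of 19 epithelial genes, a general list not limited to known Snail or ZEB targets, 6 fell with traction in Tem1WT/WT scars by edgeR and 0 rose. All 19 estimates lay below 0 (median log2 change -0.84), and 3.54% of all genes were called lower. The genes that fell included the tight-junction protein Ocln (-1.65, edgeR adjusted p = 0.0252), the adhesion molecule Epcam (-1.38, 0.0311) and the splicing regulator Esrp1 (-0.84, 0.0311). Cdh1, the E-cadherin gene, was at -0.39 (edgeR adjusted p = 0.269). Epcam was at 193 CPM ± 44.3 in WTSH and 74 CPM ± 24.8 in WTTR (SD, n = 3). Over the same 19 genes the median was -0.17 in Tem1lacZ/lacZ scars, with 0 called. Hair follicle markers also fell with traction in Tem1WT/WT scars, from a summed 7490 to 14800 CPM in WTSH to 2440 to 4080 CPM in WTTR (1 of 7 called, Lhx2), and their part in the epithelial counts was not tested. Keratinocyte markers spanned 10200 to 15800 CPM in WTSH and 13500 to 20600 CPM in WTTR, with 0 of 8 called.

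Of 18 mesenchymal genes, 8 rose with traction in Tem1WT/WT scars, 0 fell, and the median log2 change was 1.39, where 5.61% of all genes were called higher and their median was -0.01. The fibronectin receptor subunit Itga5 rose by 2.05 (edgeR adjusted p = 0.0278) and the membrane protease Mmp14 by 1.33 (0.0278). The genes called also included Mmp2, Tnc, Lox, Loxl2 and Col5a1. In Tem1lacZ/lacZ scars 0 of the 18 were called and the median was 0.36. The genotype by traction estimate had a median of -0.76 over the 18 genes, with 0 called by edgeR and Itga5 at -1.67 (adjusted p = 0.548).

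Among 20 other transcription factors of skin mesenchyme, 3 rose in Tem1WT/WT scars under traction, against 5.61% of all genes: Runx2 (1.48, edgeR adjusted p = 0.0252) and Creb3l1 (1.60, 0.0273), which act in bone and collagen-secreting cells, and Meox1 (0.86, 0.0479). Klf4, an epidermal barrier factor, fell by 0.53 (0.0492 in edgeR), where 3.54% of all genes were called lower. Close relatives of the 8 factors were sparse, with 5 of 10 passing the filter and 0 called. Scrt1 was at 1.18 (edgeR adjusted p = 0.256) and Snai3 at -0.89 (0.305), both below 3 CPM in every library. Of the 7 E proteins and Id inhibitors, which set the partners open to TWIST proteins, Id4 fell (-1.36, edgeR adjusted p = 0.0474) and 6 did not pass.

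Of 10 corepressors used by Snail and ZEB proteins, 0 passed in Tem1WT/WT scars, with Ctbp1 at 0.52 and Kdm1a at 0.45 (edgeR adjusted p = 0.0767 and 0.0856). Of 10 regulators of the turnover of these proteins, 0 passed, with the F-box gene Fbxl5 at 1.08 (0.0747 in edgeR) and the kinase Lats2 at 0.73 (0.0589). Over both genotypes Lats2 was called (0.67, edgeR adjusted p = 0.0323). Upstream, the ligand Tgfb1 was the 1 of 10 TGF-beta pathway genes called in Tem1WT/WT scars (1.68, edgeR adjusted p = 0.0334), with Tgfb3 just outside (0.91, 0.0505). Of all genes, 5.61% were called higher there. Over both genotypes Tgfb1 (1.38, 0.0246 in edgeR) and Tgfb3 (0.91, 0.0249) were called, against 6.5% of all genes called higher. Of 8 YAP pathway genes, Ctgf rose in Tem1WT/WT scars (0.84, edgeR adjusted p = 0.0428), and its estimate was -0.59 (0.598) in Tem1lacZ/lacZ. With the interaction test the Ctgf difference did not pass (-1.43, unadjusted p = 0.000804, edgeR adjusted p = 0.548). In Tem1lacZ/lacZ scars under traction edgeR called 0 genes of any of these lists.

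**Figure D4:**
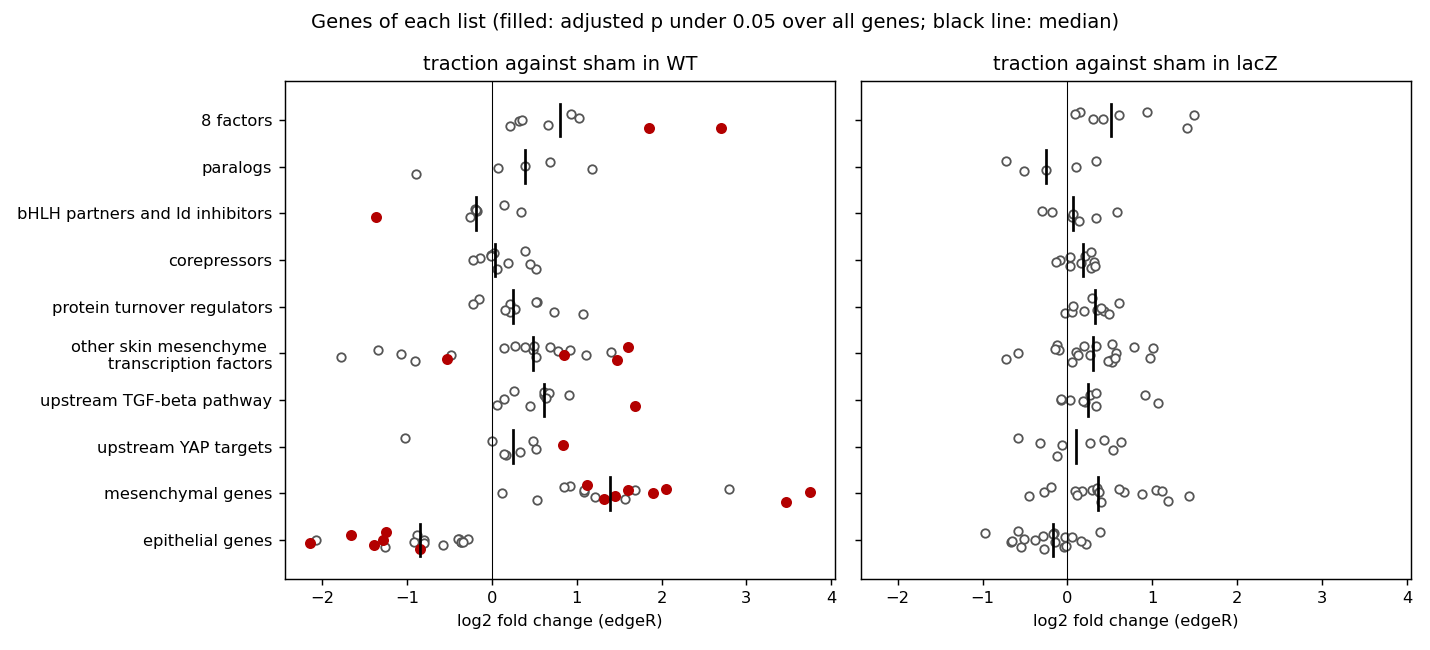
Log2 fold change with traction (x axis) for the 8 factors and each gene list (rows) in Tem1WT/WT scars (left) and Tem1lacZ/lacZ scars (right). Each point is a gene, filled points have an edgeR adjusted p under 0.05 and black lines are medians. On the left the mesenchymal genes have a median of 1.39 and the epithelial genes of -0.84, and on the right no point is filled.

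Some markers of other cell types also changed with traction in Tem1WT/WT scars, where 5.61% of all genes tested were called higher and 3.54% lower. A single gene called in a list is not read here as a change of that cell type. Endothelial markers (4 of 8 called higher) summed to 356 to 529 CPM in WTSH, 861 to 1020 CPM in WTTR, 272 to 476 CPM in lacZSH and 420 to 688 CPM in lacZTR. Neutrophil markers (4 of 7 tested called higher) summed to 62.1 to 97.7, 287 to 6800, 172 to 191 and 246 to 530 CPM in the same groups, with the highest value in WTTR replicate 1 and 1 or 2 genes of the list at 0 in 8 libraries. Macrophage markers (1 of 8 called) summed to 1590 to 2310, 2280 to 2690, 1150 to 1970 and 1220 to 2430 CPM. Pericyte and smooth muscle markers (1 of 8, Pdgfrb) summed to 696 to 1080, 876 to 1170, 436 to 640 and 742 to 923 CPM. Melanocyte markers summed to 292 to 924 CPM in WTSH and 155 to 277 CPM in WTTR, with 2 of 8 called lower. Of the remaining lists, 1 of 8 Schwann cell markers (Egr2) was called lower and 0 of the T lymphocyte, skeletal muscle and adipocyte markers were called. Their part in the levels of the 8 factors was not tested. Without WTTR replicate 1, the library with the most neutrophil RNA, Snai1 stood at 2.46 (edgeR adjusted p = 0.0269) and En1 at 1.80 (0.0577).

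**Figure D5:**
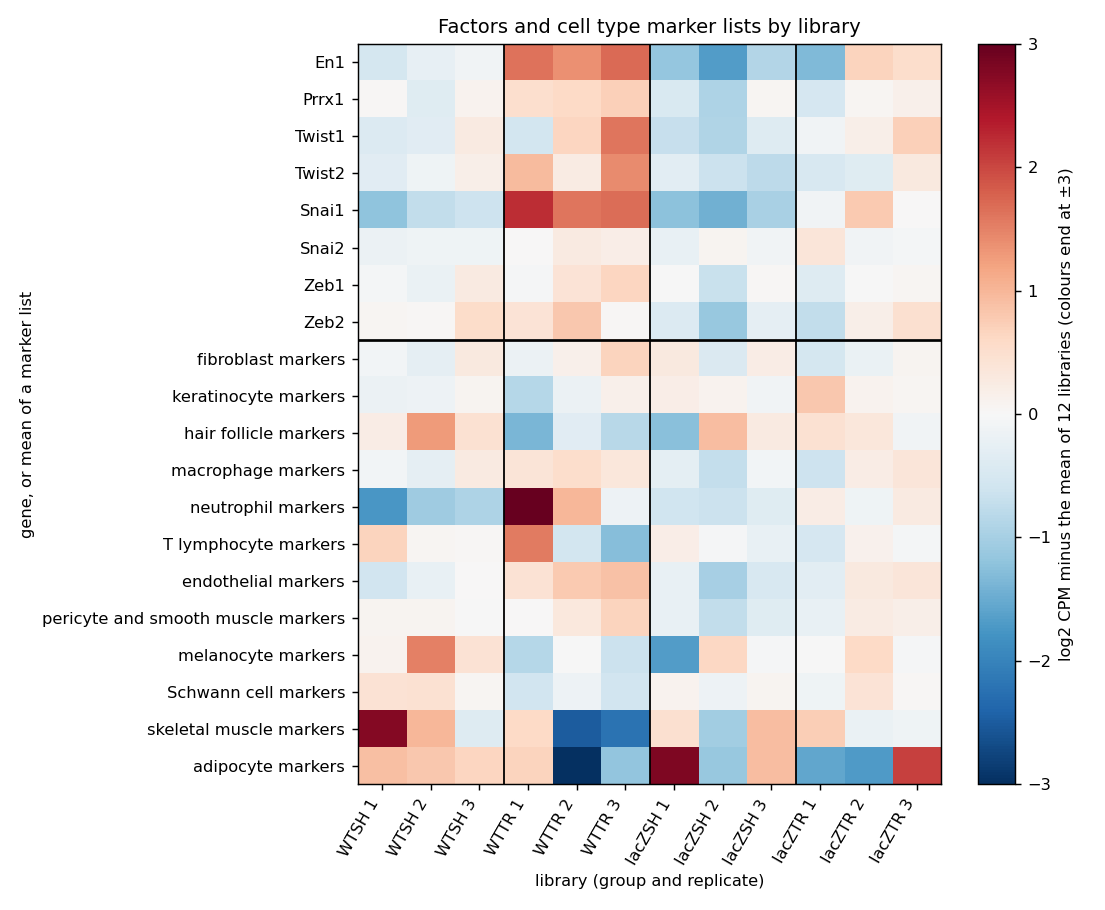
Log2 CPM of the 8 factors (upper rows) and mean log2 CPM of each marker list (lower rows), minus the mean of the 12 libraries (columns), with colours that end at 3 above and below. Snai1 and En1 are above their means in all 3 WTTR libraries, and neutrophil markers are highest in WTTR replicate 1.

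Genes with the level profile most like each factor were ranked by Pearson r of log2 CPM over the 12 libraries among 13645 genes, as a description in which libraries of 1 group share genotype and treatment. For Snai1 they were Ccbe1 (r = 0.981), Emilin1 (0.979) and Glis3 (0.972), and for En1 Csk (0.990), Arhgap31 (0.987) and Rftn1 (0.986). Prrx1 was most like Sestd1 (0.971). Twist1 was most like Daam2 (0.945), Ldlrad4 (0.937) and Chst10 (0.932), and Twist2 like Nfya (0.969), Ythdf1 (0.968) and Ghdc (0.967). Zeb1 was most like the fibronectin gene Fn1 (0.968), Cnrip1 (0.967) and Zfpm2 (0.960), and Zeb2 like the integrin gene Itga4 (0.967), Ncoa7 (0.966) and Tnfrsf13b (0.955). Snai2 had the lowest leading values, with Cdk5rap3 (0.892), Gsto1 (0.854) and Fuca2 (0.836).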

How the data were processed

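RNA from 1 part of each scar was made into TruSeq Stranded mRNA libraries, 3 mice per group, and sequenced as paired-end reads. The authors trimmed reads with fastp (0.20.0), aligned them to mouse build GRCm38 with HISAT2 (2.1.0) and counted them per gene with featureCounts (2.0.0). They deposited raw counts per gene and library. The annotation, strand setting and treatment of multi-mapping reads were not given in the sources used here.

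Counts of the 12 libraries were joined by gene, filtered with filterByExpr, scaled with TMM and fitted with 4 group means in edgeR (4.0.16, R 4.3.3, robust quasi-likelihood F test, two-sided). P-values were adjusted by the Benjamini-Hochberg method over 18853 genes, with a threshold of 0.05. CPM values use TMM library sizes, and log2 CPM a prior count of 2. Paralog ratios and levels relative to fibroblast markers were tested by exact permutation within strata, with 400 arrangements. Those p-values are given unadjusted, in place of a planned adjustment over the tests of the list. DESeq2 (1.42.0), limma-voom (3.58.1), other scalings and filters, a replicate block, a fit of 2 groups alone and the removal of each library were the alternatives. The method was tested on simulated data. Figures were drawn with matplotlib (3.10.9).

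The 8 factors, the gene lists and the tests were chosen with earlier results of these data known. All 8 factors are named. From each list the text names up to 3 genes past the threshold with the smallest p, or the 2 with the largest change, and a few more (Cdh1, Tgfb3, Snai3 and Scrt1 levels, and the remaining mesenchymal genes called) chosen after their values were seen. Some genes that these rules name are not reported here. Ccn2 was matched to Ctgf through RefSeq synonyms, and Ccn1, Krt85 and Trac were not matched. No replicate pair within a group differed by as little as sampling noise. Depth gave each factor at least 123 counts in every library, so spread between libraries beyond counting noise limits the precision. The sources of that spread were not tested. Same-numbered libraries came from different mice.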

Additional observations from a re-analysis of the deposited data

How the results depend on the processing

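Snai1 and En1 stayed higher with traction in every alternative tried, from 2.46 to 2.82 and from 1.64 to 1.95 on the log2 scale in Tem1WT/WT scars, whereas their calls depended on the setting (17 and 12 of 20 alternatives past the threshold). The 20 include removals of a Tem1lacZ/lacZ library, which left both compared groups whole. Estimates could hardly move in those fits (2.69 to 2.70 for Snai1 and 1.84 to 1.86 for En1). The number of factors called in Tem1WT/WT scars was 2, given with the number of all genes called in brackets (1725 genes). It was 0 with only the libraries of the groups compared (0 genes) and 3 with DESeq2 (4047 genes). With libraries scaled to fibroblast markers it was 1 (26 genes), and with 1 library left out 0 to 3 (0 to 2861 genes). In Tem1lacZ/lacZ scars it was 0 (0 genes), but 1 with DESeq2 (28) and 2 with limma-voom (435). With 1 library left out it was 0 to 2 there (0 to 73 genes). Between genotypes with traction it was 0 (20 genes), but 3 with DESeq2 (2334) and 0 to 2 with 1 library left out (3 to 1421). Over both genotypes it was 2 (1835 genes), but 5 with DESeq2 (3850) and 4 with limma-voom (3881). With 1 library left out it was 0 to 4 there (0 to 3422 genes). Of the 6 paralog-ratio tests, 2 had p under 0.05, and 2 to 4 with 1 library left out (4 without WTTR replicate 3). The cause was not tested.

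Some small estimates changed sign. With libraries scaled to fibroblast markers, where the median of all genes was 0.438 between genotypes with traction and 0.453 in the interaction, Twist1 was at 0.0421 and Snai2 at 0.374 between genotypes with traction, and the interaction was 0.108 for Prrx1, 0.295 for Snai2 and 0.252 for Zeb1. Upper quartile scaling gave Snai2 0.0451 between genotypes with traction. Relative to the median of all genes in the same setting, none of these 6 values changed sign. With 1 library left out, Zeb1 ranged from -0.0758 to 0.257 for traction in Tem1lacZ/lacZ and Snai2 from -0.0156 to 0.126 between genotypes in sham. Between genotypes with traction, Snai2 then ranged from -0.212 to 0.00483 and Twist1 from -0.856 to 0.155. The interaction ranged from -0.76 to 0.0166 for En1 and from -0.321 to 0.691 for Twist1, and the Twist1 over Twist2 traction difference from -0.04 to 0.434. Of the single values under an alternative, 1155 kept direction and side of the threshold, 28 lost the threshold, 29 gained it and 18 changed sign, 6 of them the values under another scaling given above.

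Same-numbered libraries shared no animal, and their deviations did not correlate above 0.1 in every pair of any comparison. Single pairs ranged from r = -0.324 (traction in Tem1lacZ/lacZ, replicate 1) to 0.25 (genotypes in sham, replicate 2). With the replicate block, edgeR called 1467 genes in Tem1WT/WT scars in place of 1725, with 2 factors called there. Over both genotypes it called 3 factors (Twist1 added) and 1492 genes in place of 1835. The 3 mice per group limit what can be called.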
